A study of Sus scrofa with 6 samples.

Results

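INHA, ACVR2B and BMP15 are the activin, inhibin and bone morphogenetic protein genes among 175 genes that the platform annotation names on a pig array. They were chosen by gene symbol, and each has 1 probe (822 for INHA, 6003 for ACVR2B and 7731 for BMP15). Of 87 symbols listed for the activin, inhibin, BMP and TGF-beta pathway, these 3 had a named probe, so the other ligands, receptors, antagonists and SMAD proteins were not analysed here. The array RNA came from Sus scrofa blastocysts that every sample label gives as day 5. The study held 1 group, 3 biological replicate RNA samples with no treatment or second stage, so the design allows comparisons between replicates alone. The sources used here do not give the strain, the origin of the embryos or how many were pooled. RNA was amplified in 2 rounds before labelling.

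Activins, inhibins and BMPs belong to the TGF-beta superfamily of secreted dimers. Activins and BMPs bind a type II receptor, which activates a type I receptor that phosphorylates SMAD proteins. INHA encodes the inhibin alpha subunit, which pairs with a beta subunit to form inhibin, an antagonist of activin best known as an ovarian hormone. ACVR2B encodes a type II receptor that binds activins and related ligands such as nodal. BMP15 is a ligand made by the oocyte, where it acts on the surrounding granulosa and cumulus cells. Activin and nodal signalling is also known for its part in maintaining the pluripotent epiblast of mammalian embryos.

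Each array compared 1 RNA sample in Cy5 with another in Cy3. Arrays 1 and 2 held RNA samples 1 and 2, arrays 3 and 4 held RNA samples 1 and 3, and arrays 5 and 6 held RNA samples 2 and 3, with the dyes exchanged within each pair. The deposited value is a log2 ratio, likely of Cy5 over Cy3. If the authors used the reverse, every direction below turns while the sizes stay. A ratio that was a whole number, its reciprocal or 1 was counted as not measured, since such ratios arise where a channel sits at a fixed low value. Of 20400 probes, 7290 were measured on array 1, 10525 on array 2, 13563 on array 5, and 19854 to 20192 on arrays 3, 4 and 6. The median deposited ratio of the measured probes was -2.39 on array 1 and -0.10 to 0.64 on the other 5. Array 1 therefore stood apart, and tested differences are also given without it.

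Most ratios could be written as a fraction of whole numbers up to 5000, which held for 95.4% to 98.9% of measured values on each array. In lowest terms, the numerator and denominator give the 2 channel signals up to an unknown common factor. They are the smallest possible values only if both signals were whole numbers. Ratios counted as not measured, other than 1, were mostly even whole numbers or reciprocals of these (84.9% to 96.7% on each array), so this may not hold there. These terms are printed beside the ratios, where a small term need not mean a weak signal, since a common factor may have cancelled. Terms of different arrays have no common scale.

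INHA was measured on all 6 arrays. Its deposited log2 ratio was -6.99 on array 1, 0.83 on array 2, -0.28 on array 3, 0.35 on array 4, 0.24 on array 5 and -0.21 on array 6. The other 5 arrays thus lay between -0.28 and 0.83, far above array 1. Of the 7290 probes measured on array 1, 17 had a ratio as low as that of INHA or lower. In lowest terms the array 1 ratio was 2 for RNA sample 1 over 255 for RNA sample 2. On the other arrays with RNA sample 1 its INHA term was 113 against 201 (array 2), 151 against 183 (array 3) and 159 against 203 (array 4). A term of RNA sample 1 far below that of its partner was thus seen on 1 of its 4 arrays.

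ACVR2B was also measured on all 6 arrays. Its deposited log2 ratio was -2.78 on array 1, 0.86 on array 2, 0.31 on array 3, 0.46 on array 4, 1.60 on array 5 and -2.30 on array 6. The ratio of array 1 lay near that array's median of -2.39, and the values that stood out were those of arrays 5 and 6. In lowest terms RNA sample 2 had 161 against 53 for RNA sample 3 on array 5, and 84 against 17 on array 6. On arrays 1 and 2, RNA sample 2 had 282 against 41 and 158 against 87 for RNA sample 1. RNA sample 2 had the higher term on each of its 4 arrays. The terms are not centred, and 48.4% of the 5431 probes measured on all 6 arrays, INHA among them, share this pattern.

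BMP15 was measured on 3 arrays. Its deposited log2 ratio was 0.42 on array 3, 0.79 on array 4 and -0.30 on array 6, with terms of 282 over 211, 515 over 298 and 111 over 137. On array 1 the ratio was 1 over 176 (log2 -7.46), and on array 2 it was 26 over 1 (log2 4.70). In both, RNA sample 1 was the channel at the low value and RNA sample 2 the channel with signal. On arrays 3 and 4, RNA sample 1 had BMP15 terms of 282 against 211 and 298 against 515 for RNA sample 3. The ratio of 1 over 3 on array 5 (log2 -1.58) also fell under the rule for floor values. It is odd, whereas 94.6% of such ratios other than 1 on that array were even, so it may be a measured ratio that happens to reduce to 1 over 3.

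**Figure D1:**
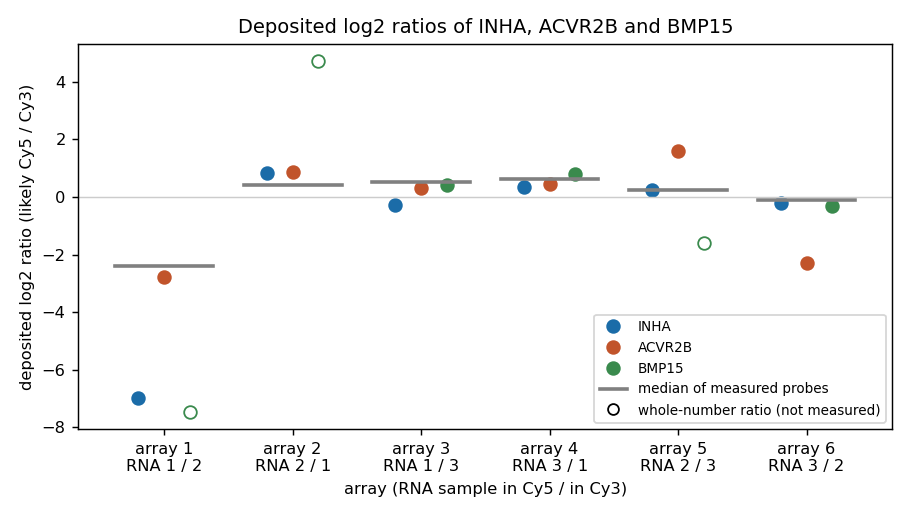
Deposited log2 ratio (y axis, likely Cy5 over Cy3) of INHA, ACVR2B and BMP15 on each of the 6 arrays (x axis, with the RNA samples in Cy5 and Cy3), filled where measured and open for whole-number ratios. Grey lines are the medians of all measured probes. INHA departs from the line on array 1 at -6.99, ACVR2B on array 5 at 1.60 and on array 6 at -2.30.

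**Figure D2:**
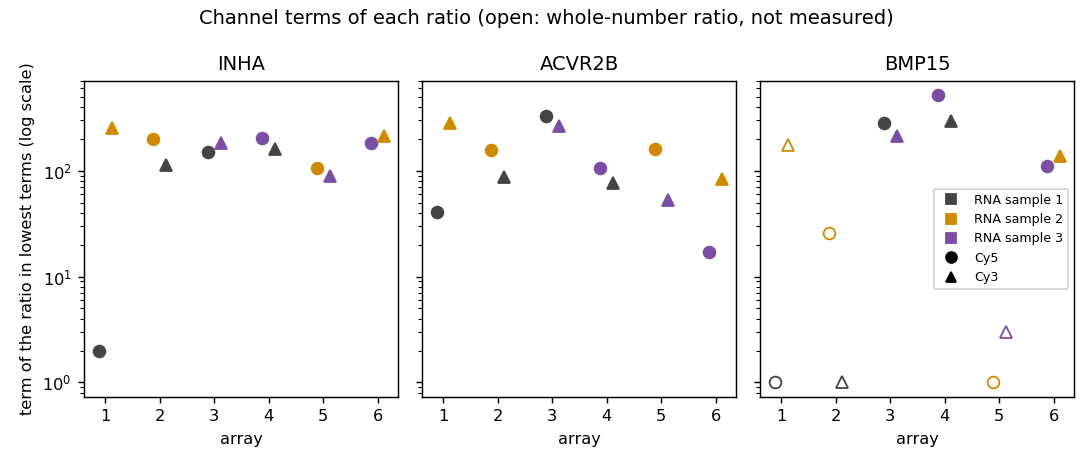
Terms of each ratio in lowest terms (y axis, log scale) by array (x axis), coloured by RNA sample, with circles for Cy5 and triangles for Cy3, and open symbols for whole-number ratios. INHA terms lie between 89 and 255 except for 2 on array 1, and RNA sample 2 is above its partner for ACVR2B on arrays 1, 2, 5 and 6. Terms of different arrays have no common scale.

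The pattern of missing BMP15 values was shared by many probes. Measurement on arrays 3, 4 and 6 alone was found for 4114 of 20400 probes (20.2%), and for 48 of the 178 named ones. RNA sample 1 at the low value on both arrays 1 and 2, with RNA sample 2 above it, was found for 1199 probes (5.88%), and 1161 of these were measured on arrays 3 and 4. The opposite, RNA sample 2 low on both, was found for 34 probes. A low value of RNA sample 1 on both arrays thus touched many probes. By the same rule, RNA sample 1 was the low channel for 41.3% of probes on array 1 and RNA sample 2 for 2.00%. On array 2 these were 9.56% and 6.33%. Array 5, where BMP15 was also counted as not measured, holds no RNA sample 1. What lay behind the BMP15 values was not tested. FSHR, the follicle-stimulating hormone receptor of granulosa cells, was likewise measured on arrays 3, 4 and 6 alone.

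To compare RNA samples, the median over the 5431 probes measured on all 6 arrays was subtracted from each array, so that differences are relative to the median probe. INHA and ACVR2B passed this filter and were tested in limma, and BMP15 was not. The fit took the mean of the 2 arrays of a pair and left 1 residual degree of freedom. Moderation of the variances across probes gave INHA and ACVR2B the same standard error of 0.43 for every difference. That was also the median standard error of all 5431 probes, so the p-values of these genes rest on a spread pooled over probes. Benjamini-Hochberg adjustment covered all 5431 probes, with a threshold of 0.05. As no RNA sample was itself replicated, p-values do not describe a spread between replicates of an RNA sample. The spread in this fit is how far the pair means of a probe depart from adding up, pooled over probes. The gap between the 2 arrays of a pair does not enter it directly. In whole embryos, fewer cells that express a gene and less RNA per cell cannot be told apart.

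Between RNA samples 2 and 1, INHA was higher in RNA sample 2 by 4.50 on array 1 and by 0.38 on array 2 (centred log2 differences). Both arrays point the same way, but they differ by 4.12, a gap that 162 of 6193 probes measured on both arrays reached (median gap 1.08). The fitted log2 difference of 1.58 ± 0.43 (SE) corresponds to 2.99-fold and had an adjusted p of 0.00370 in limma. INHA was thus 1 of 2 tested members called here, where 19.5% of all tested probes were called. Without array 1 the fitted value was 0.36 (adjusted p 0.434), and no probe of the array was called (2279 at an unadjusted p under 0.05). That fit covered 8411 probes, with a median standard error of 0.30 against 0.43 in the reported fit. Its standard errors differed between genes (0.28 for INHA and 0.37 for ACVR2B). The 2 fits are thus not alike, and the lack of calls need not mean smaller differences. INHA did not pass without array 4 (1.33, adjusted p 0.236) or without array 5 (1.12, adjusted p 0.214) either. When limma was fitted to single arrays rather than pair means, with a term for the dye, the INHA adjusted p was 0.151, and 5.63% of probes were called.

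The low term behind the INHA value was shared by other probes. On array 1, 129 of the 5431 tested probes (2.38%) had a Cy5 term of at most 2. Of these, 31 (24.0%) were called between RNA samples 2 and 1, against 19.5% of all tested probes, and 82 had a higher fitted value in RNA sample 2. With every ratio whose smaller term was under 10 counted as not measured, a setting chosen after the data were seen, the INHA difference was 0.05 ± 0.48 (SE) with an adjusted p of 0.955 in limma. This setting kept incomplete pairs and fitted 9683 probes. For INHA it removed the ratio of array 1 alone, so it is not separate from leaving that array out.

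INHA in the remaining pairs differed little on the arrays themselves. RNA sample 3 was above RNA sample 1 by 0.41 on array 3 and 0.17 on array 4, a mean of 0.29 or 1.22-fold. Relative to all probes measured on an array these were 0.79 and -0.28, so the direction on array 4 depended on the centring. RNA sample 3 was above RNA sample 2 by 0.15 on array 5 and 0.71 on array 6, a mean of 0.43. These sizes lay at the 72.6 and 30.0 percentiles of absolute pair means of the probes measured on both arrays. The 0.71 depended on centring: relative to all probes measured on the array, array 6 gave -0.11 and array 5 gave 0.00027. Without centring both were below 0, at -0.24 on array 5 and -0.21 on array 6. The fit across the loop moved both values, since the large value of array 1 enters every fitted difference. It gave 1.15 ± 0.43 (SE) between RNA samples 3 and 1 (adjusted p 0.472) and -0.43 ± 0.43 (SE) between RNA samples 3 and 2 (adjusted p 0.492), the latter opposite to its own 2 arrays under this centring and in their direction without centring. Neither of the 2 tested members was called between RNA samples 3 and 1, where 0.203% of probes were, or between 3 and 2, where 20.7% were. Without array 1 the INHA values were 0.41 and 0.05. Without array 6 the difference between RNA samples 3 and 2 was -1.34 and passed (adjusted p 0.0302).

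How far a gene departs from a closed loop can be read from its 3 pair means, as 2 minus 1 plus 3 minus 2 should equal 3 minus 1. For INHA the sum was off by 2.58, and 45 of 5431 tested probes were off by as much or more (median 0.65). For ACVR2B it was off by -1.01, at the 73.5 percentile of absolute values. The moderated F test over all 3 RNA samples gave INHA an adjusted p of 0.00593 and ACVR2B one of 0.191, where 21.8% of tested probes were called. Without array 1 these were 0.570 and 0.299, so INHA no longer passed, in a fit of 8411 probes where no probe did. Without centring INHA had 0.150 and ACVR2B passed with 0.0451, where 18.4% were called. Fitted to single arrays, limma gave 0.272 for INHA and 0.172 for ACVR2B.

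**Figure D3:**
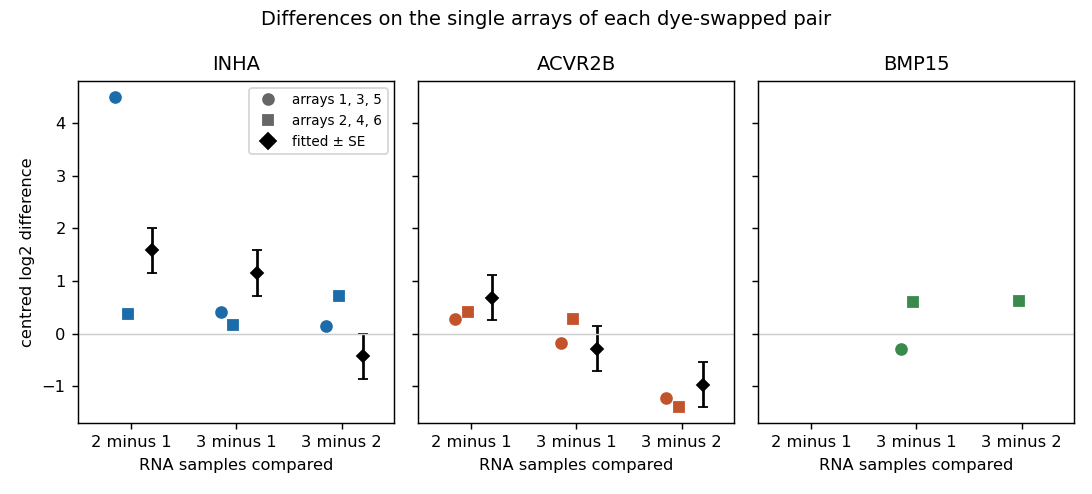
Centred log2 differences (y axis) on the single arrays of each dye-swapped pair (x axis, RNA samples compared), with the fitted difference ± SE as black diamonds where a gene was tested. The INHA arrays of 2 minus 1 lie at 4.50 and 0.38. The ACVR2B arrays of 3 minus 2 lie together under this centring, at -1.21 and -1.39. BMP15 has 2 arrays for 3 minus 1 and 1 for 3 minus 2.

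ACVR2B had less signal in RNA sample 3 than in RNA sample 2 on both arrays of the pair, by close amounts under the reported centring. Array 5 gave -1.21 and array 6 gave -1.39, a mean of -1.30 or 2.46-fold. The gap of 0.18 between these arrays lay at the 9.36 percentile of gaps over 13381 probes, and the size at the 84.6 percentile. Relative to all probes measured on an array, arrays 5 and 6 gave -1.36 and -2.20. Without centring they gave -1.60 and -2.30. The direction was thus kept, while the closeness of the arrays depended on the centring. The fitted difference was -0.97 ± 0.43 (SE) with an adjusted p of 0.0907, so ACVR2B did not pass. It passed without centring (-1.88, adjusted p 0.0309, where 26% of probes were called). It also passed with each array centred on all its own measured probes (-1.32, adjusted p 0.0474, where 18.2% were called), a setting chosen after the data were seen. With 1 array left out in turn the fitted value stayed between -1.20 and -0.81 and never passed. The -1.20 ± 0.37 (SE) came without array 1, in a fit of 8411 probes whose standard errors differed between genes. That difference was larger than the reported one and its standard error smaller, so not passing there does not mean a weaker difference.

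Between RNA samples 2 and 1, ACVR2B was higher in RNA sample 2 by 0.28 on array 1 and 0.41 on array 2, a mean of 0.35 at the 27.3 percentile of sizes. The fitted difference was 0.68 ± 0.43 (SE) with an adjusted p of 0.252, and without array 1 it was 0.89 (adjusted p 0.232). Without centring it was 1.89 (adjusted p 0.0292), where 40.2% of probes were called. Between RNA samples 3 and 1 its direction differed between the arrays, with -0.18 on array 3 and 0.28 on array 4. These became 0.20 and -0.18 with own-array centring. The fitted value was -0.28 ± 0.43 (SE), with an adjusted p of 1.00, and -0.31 without array 1. The receptor was thus higher in RNA sample 2 than in its partner on all 4 arrays that hold RNA sample 2, with or without centring, while the arrays did not order RNA samples 1 and 3. Such a direction on all 4 arrays was seen for 1013 of 5431 tested probes (18.7%), and the reverse for 863 (15.9%). With own-array centring the counts were 1349 (24.8%) and 380, and without centring 2629 (48.4%) and 29. INHA had this direction on all 4 arrays without centring alone.

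Of the marker genes, PAG6, a pregnancy-associated glycoprotein of trophoblast, had the same direction as ACVR2B on all 4 arrays with RNA sample 2. Its centred log2 differences were 1.40 and 0.64 for RNA sample 2 over 1, and -1.11 and -1.68 for RNA sample 3 over 2. This direction was shared by 18.7% of tested probes. Its adjusted p in the F test was 0.0222, where 21.8% of tested probes were called. Without array 1, in a fit of 8411 probes, no probe passed this test (1674 at an unadjusted p under 0.05). IFN-DELTA-1, a conceptus interferon and the other of 2 trophectoderm markers with a probe, was higher in RNA sample 2 than in RNA sample 1 by 1.95 and 0.71. Its arrays of the pair 3 and 2 disagreed (-0.66 and 0.98). The part of cell makeup in the ACVR2B values was not tested.

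BMP15 had a pair value for RNA samples 3 and 1 alone. Array 3 gave -0.28 and array 4 gave 0.61, a mean of 0.16 (SD 0.63 over the 2 arrays). The arrays disagreed in direction, and the size lay at the 48.7 percentile of 19842 probes. Relative to all probes measured on an array, they gave 0.09 and 0.15, so that the direction on array 3 depended on the centring. A gap of this size between the arrays was common, at the 43.3 percentile. In the pair 3 and 2, array 6 gave 0.61 relative to the tested probes and -0.20 relative to all its measured probes. If the ratio of 1 over 3 on array 5 is taken as measured, that array gave 1.97. No test was made for BMP15 in these pairs.

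Where floor values are kept, BMP15 on arrays 1 and 2 gave 4.96 and 4.25 for RNA sample 2 over RNA sample 1, relative to the tested probes. A fit of all 20400 probes centred each array on the median of all of them instead (-3 on array 1 and 0 on array 2). Its difference was 2.85 ± 1.04 (SE) and did not pass (adjusted p 0.0812 in limma). These values use the low value of RNA sample 1 as if it were a measurement. FSHR again had a ratio of this kind on array 2 (log2 4.32), and a ratio of exactly 1 on array 1.

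Few markers that bear on the label of the embryos had a named probe. Of the markers listed for each cell type, 2 of 11 for trophectoderm (PAG6 and IFN-DELTA-1) had a named probe and were measured on all 6 arrays. KLF4, a pluripotency factor and 1 of 5 inner cell mass markers, was measured on 4 arrays. GATA6, a primitive endoderm factor and 1 of 4, was measured on 5. Of 11 cumulus and granulosa markers, FSHR and INHA had a probe, and of 8 oocyte markers only BMP15. The immune markers CD4 and TYROBP were measured on 5 arrays each. A ratio of 2 blastocyst samples carries no level, and counting as measured does not place a probe above background. Of all probes, 97.3% to 99.0% were measured on each of arrays 3, 4 and 6, and 26.6% on all 6 arrays. These values thus do not show that a marker was expressed, nor in which cells. In the pair 3 and 1, FSHR had -0.88 on array 3 and 0.77 on array 4, where INHA had 0.41 and 0.17.

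Named genes with the most similar values were found by the root mean square difference of centred log2 ratios. For INHA over 6 arrays, SLC22A2, an organic cation transporter, came first among 55 named probes at 0.75, followed by IFN-DELTA-1 at 1.14 and LY49 at 1.22 (median 1.99). INHA had -4.50 on array 1, so the choice by distance favoured genes low there. These 3 had -3.77, -1.95 and -1.75. For ACVR2B the closest were OCA2, a melanosomal membrane protein, at 0.46, ADIG at 0.50 and CYP8B1, an enzyme that makes cholic acid, at 0.63 (median 1.10). The choice likewise favoured genes low on array 6, where ACVR2B had -1.39 and these had -1.33, -1.06 and -1.48. CYP8B1 was also low on array 1, at -1.42. For BMP15 over 3 arrays, GAD2, a glutamate decarboxylase, came first among 168 named probes at 0.12, then B3GALNT1 at 0.13 and MBL2 at 0.17 (median 0.68).

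**Figure D4:**
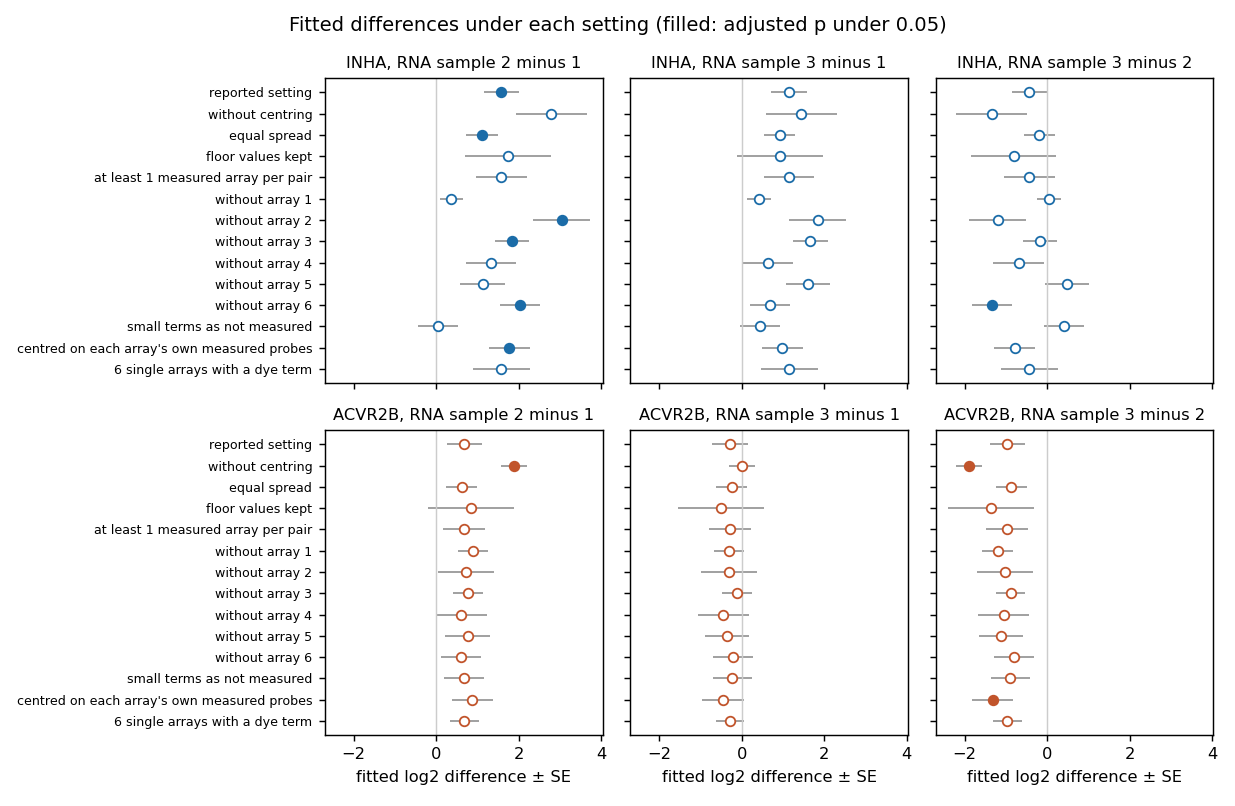
Fitted log2 differences ± SE (x axis) of INHA (top) and ACVR2B (bottom) for each comparison of RNA samples under each processing setting (y axis), filled where the adjusted p was under 0.05. INHA between RNA samples 2 and 1 ranges from 0.05 to 3.04, and ACVR2B between RNA samples 3 and 2 stays below 0 in every setting shown.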

How the data were processed

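Per the labels, 3 RNA samples of day 5 blastocysts were hybridised in pairs on 6 arrays with 2 colours and exchanged dyes. The authors deposited log2 ratios of the channels, 1 per probe and array. Scale, centring and direction are not stated: column medians differ, so the values are uncentred, and Cy5 over Cy3 is likely. With all arrays read the same way, 23.8% of the squared values lay outside a loop with a dye term, and every way to turn single arrays left more (27.5% with array 3 turned). The scanner settings and any background correction were not stated. A ratio within a relative 1e-05 of a whole number or its reciprocal counted as not measured. Depth has no counterpart here; the number of arrays limits the precision.

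Pair means were fitted in limma 3.58.1 (R 4.3.3) and p-values adjusted by Benjamini-Hochberg. The script was tested on simulated data. The alternatives were no centring, equal spread, single arrays, floor values kept, incomplete pairs kept, each array left out, and, chosen after seeing the data, small terms left out and centring on own measured probes. An array alone in its pair was corrected by the probe's mean dye effect in complete pairs. The genes, gene lists and tests were chosen with earlier results of these data known. Named genes were the 3 members, pathway list genes and the 3 closest named genes for each member. Markers given beside a result were taken from the marker lists. Names came from GEO's platform annotation: 178 probes have 1 symbol, none has several, and 20222 have none. All 178 gene IDs are in RefSeq's table for Sscrofa11.1. The deposited table names no genome build, so no positions are given.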

Additional observations from a re-analysis of the deposited data

Results flagged for a closer look

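INHA on array 1 lay far from its values on the other 5 arrays. Its deposited log2 ratio there was -6.99, its centred ratio -4.50, and its difference between RNA samples 2 and 1 in the common direction 4.50. The gap to the nearest array took 85.8%, 78.5% and 87.1% of the range over the 6 arrays, where 62.5% is the limit. Chance sets about 1 in 20 such groups apart, and the 3 measures are the same value on different scales. The 6 arrays compare different RNA samples, so they are not replicates of 1 quantity. The ratio reduced to 2 over 255. ACVR2B had no such array.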

How the results depend on the processing

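The INHA difference between RNA samples 2 and 1 kept its direction in all 13 alternatives and passed in 5. It did not pass without centring (2.79), with floor values kept (1.74), with incomplete pairs kept (1.58), in single arrays (1.58) or with small terms left out (0.047), and ranged from 0.36 to 3.04 with 1 array left out. Between RNA samples 3 and 2, INHA turned to 0.40 with small terms left out and ranged from -1.34 (without array 6, past the threshold) to 0.48 with 1 array left out. Without centring, ACVR2B gave 1.89 (2 minus 1), 0.0063 (3 minus 1) and -1.88 (3 minus 2), and with own-array centring -1.32 (3 minus 2). The other fitted differences of INHA and ACVR2B stayed on their side of the threshold. The INHA F test did not pass without centring (adjusted p 0.150), with floor values kept (0.808), with incomplete pairs (0.279), in single arrays (0.272), with small terms left out (0.771), or without array 1 (0.570), 4 (0.475) or 5 (0.0879). The ACVR2B F test passed without centring (0.0451). BMP15 between RNA samples 3 and 1 moved by less than the SD of its arrays in 4 alternatives. Its array 6 value for 3 minus 2 was 0.61, against -0.20 with own-array centring and -0.30 without centring, and arrays 1 and 2 had no measured value.

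Counts of called probes for RNA samples 2 and 1 (1059 in the reported setting) were 2182 without centring, 144 with incomplete pairs, 1628 with small terms left out, 589 with own-array centring and 306 in single arrays. For 3 and 1 (11) they were 0 without centring, 108 with equal spread, 4 with floor values kept, 0 with incomplete pairs, 3 with own-array centring and 0 in single arrays. The counts of 0 had 72, 235 and 173 probes at an unadjusted p under 0.05 in limma. For 3 and 2 (1123) they were 559 with floor values kept, 229 with incomplete pairs and 656 in single arrays. The F test (1184) gave 71 with incomplete pairs and 463 in single arrays. With 1 array left out the ranges were 0 to 1256, 0 to 385, 0 to 1399 and 0 to 1725, and all 4 counts were 0 without array 1 (2279, 141, 2050 and 1674 at an unadjusted p under 0.05). The splits of higher and lower calls were 585 and 474 for 2 and 1 and 329 and 794 for 3 and 2, against 2172 and 10 and 5 and 1406 without centring, 491 and 251 and 271 and 835 with equal spread, and 480 and 109 and 30 and 960 with own-array centring. The cause of these shifts was not tested. Counts of 0 without array 1 came from a fit of 8411 probes whose standard errors differed between genes, and need not mean smaller differences.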
